A study of Canis lupus familiaris with 51 samples.

Results

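The matrix metalloproteinases (MMPs), ADAMs, ADAMTS proteases, ADAMTS-like proteins and tissue inhibitors of metalloproteinases (TIMPs) were followed across 51 canine cutaneous mast cell tumors (MCTs). A gene was included when an array probe carried its symbol as MMP, ADAM, ADAMTS, ADAMTSL or TIMP followed by a number. This gave 37 genes with 59 probes, of 35619 gene names and 43603 probes on the array. They were 12 MMPs, 13 ADAMs, 6 ADAMTS, 3 ADAMTSL and 3 TIMPs. TIMP4, ADAM8, ADAM17 and ADAMTS1 were not among the probe names. Every level below is a log2 intensity after quantile normalization, and a difference of 1 is a doubling. Probes bind with different strength, so levels were compared between tumors and never between probes.

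MMPs are zinc proteases that cleave collagens, elastin, proteoglycans and other matrix proteins outside the cell. Most are secreted as inactive precursors and are turned on by other proteases. ADAMs sit in the cell membrane, and those with protease activity release growth factors, receptors and adhesion molecules from the surface. ADAMTS enzymes are secreted and trim procollagens and proteoglycans, ADAMTSL proteins are related glycoproteins that lack the protease part, and TIMPs block the enzymes by binding to their active site. In mast cell tumors of dogs these genes can be read by the mast cells or by the fibroblasts, endothelium and leukocytes around them.

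RNA from the central part of each tumor was labeled with Cy3 and hybridized to a one-color Agilent canine array, 1 tumor per array. The study chose 18 reference samples by histology, 5 undifferentiated (high grade with many mitoses: T9, T57, T73, T90 and LM0) and 13 differentiated (low grade with few). It assigned a class to the other 33 by a gene signature read from these same arrays, 7 as undifferentiated (T132, T115, T114, T104, T80, T77 and T49) and 26 as differentiated, and these are called predicted samples here. The labels give no class, so classes were taken by case name from the study, and LM0 received its class by elimination, since every other case name matched. The study reports surgery, systemic treatment, radiation or combinations of these for its dogs, but not by case. Treatment could therefore not be compared between the groups. The dogs were 3 to 14 years old (49 with an age) and of many breeds, among them 9 Boxers and 9 Labrador Retrievers; 19 were labeled male, 30 female and 2 had no sex given. The median age was 10 years in the reference undifferentiated, 7 in the reference differentiated, 9.5 in the predicted undifferentiated and 8 in the predicted differentiated group.

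Between 59.4% and 74.8% of the spots of an array were well above background, with a median of 68.7%. Any pair of arrays correlated at r = 0.905 or more over all probes, and 0 pairs of arrays were identical. LM0 had the lowest median correlation with the other arrays (0.926) and T9 the next lowest (0.938), so some reference results are also given without them. Without T9 the reference differences also moved for MMP1 (3.85 to 5.06), ADAM10 (0.36 to 0.51) and ADAMTS2 (-0.67 to -0.35), none of them called. Of 9 listed mast cell markers, 4 were on the array and detected on most tumors, and the mean of their levels was 13.60 to 16.70 in undifferentiated and 14.35 to 16.76 in differentiated tumors. Of the 37 member genes, 19 were well above background on all 51 arrays by their brightest probe, 26 on at least 26, 7 on 1 to 25 and 4 on none. The 4 never detected were ADAM2, ADAM7, ADAM29 and ADAM32, which are best known from testis and epididymis. Array T9 had 35 member probes above background, against a range of 32 to 49 over all arrays.

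The probes that carried the class differences are printed here 5′ to 3′, since an array value is the signal of such a stretch and not of a whole transcript. Each is the brightest probe of its gene except for TIMP3, where the probe shown is the one with the difference of -2.97 below and the tumor levels given are those of the brightest probe. Positions are those of the array's annotation, whose genome build the files do not name. Capitals mark the stop codon at the end of the coding sequence of MMP3, and the other probes have no capitals.
MMP1: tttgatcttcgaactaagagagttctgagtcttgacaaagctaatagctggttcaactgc
MMP3: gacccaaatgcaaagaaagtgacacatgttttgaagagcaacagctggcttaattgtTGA
MMP12: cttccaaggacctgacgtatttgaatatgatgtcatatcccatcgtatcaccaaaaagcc
MMP13: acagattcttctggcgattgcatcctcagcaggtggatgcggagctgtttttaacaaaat
MMP11: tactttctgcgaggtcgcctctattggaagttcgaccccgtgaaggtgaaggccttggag
TIMP3: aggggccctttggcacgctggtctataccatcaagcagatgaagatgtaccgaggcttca
ADAMTSL3: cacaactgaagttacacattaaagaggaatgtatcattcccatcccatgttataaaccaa

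The first 4 lie close together on chromosome 5, on the plus strand, in the order MMP13 at chr5:31867714-31868765, MMP12 at chr5:31941480-31941539, MMP3 at chr5:31966556-31966615 and MMP1 at chr5:31994840-31994899. The MMP13 probe spans more bases of the genome than its 60 because it crosses an intron. In the RefSeq annotation of the dog assembly UU_Cfam_GSD_1.0 the same gene order holds, in a row of 9 genes that goes on with LOC102154292, MMP8, MMP27, MMP20 and MMP7; 5 of these 9 are members, and the others were not on the array under those names. The MMP11 probe is at chr26:31795882-31795941 on the minus strand. The TIMP3 probe shown crosses an intron at chr10:33755440-33762996 on the minus strand, and the ADAMTSL3 probe is at chr3:58426614-58426673 on the plus strand.

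Among predicted samples 4 secreted MMPs rose in undifferentiated tumors, namely MMP3 and MMP11 (stromelysins) and MMP1 and MMP13 (collagenases). In the reference samples, the inhibitor TIMP3 and the matrix glycoprotein ADAMTSL3 fell, and no MMP passed the test. Over all 51 tumors, MMP1, MMP3, MMP12 and MMP13 rose and TIMP3 fell. Some of these calls were lost in alternative fits, as given below. A probe was called when limma's moderated test gave a Benjamini-Hochberg adjusted p under 0.01 over all probes and a fold of at least 2, the limits of the study's own test. By that rule 4 of 59 member probes were called in the reference comparison, where 1.80% of all probes were (6.78% of the members), and all 4 were lower. In the predicted comparison 4 member probes were called, against 0.956% of all probes, and all 4 were higher. Over all classes 8 were called, 5 higher and 3 lower, against 2.33% of all probes. Split by direction, the background was 0.950% higher and 0.847% lower in the reference, 0.718% higher and 0.239% lower in the predicted and 1.30% higher and 1.04% lower in the all-class comparison. At an adjusted p under 0.05 with no limit on the fold, 6, 8 and 14 member probes passed, or 10.2%, 13.6% and 23.7%, against 7.55%, 5.53% and 14.1% of all probes. These 3 comparisons are not independent, because the all-class comparison holds the arrays of the other ones. The median difference of the 12 MMP genes was 0.03 in the reference, 1.35 in the predicted and 0.93 in the all-class comparison, beside medians over all genes of 0.04, -0.04 and -0.01. The levels of all 59 member probes overlapped between the classes in each of these comparisons. In bulk tissue fewer cells of a kind and less RNA per cell cannot be told apart, and this applies to every difference below.

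**Figure D1:**
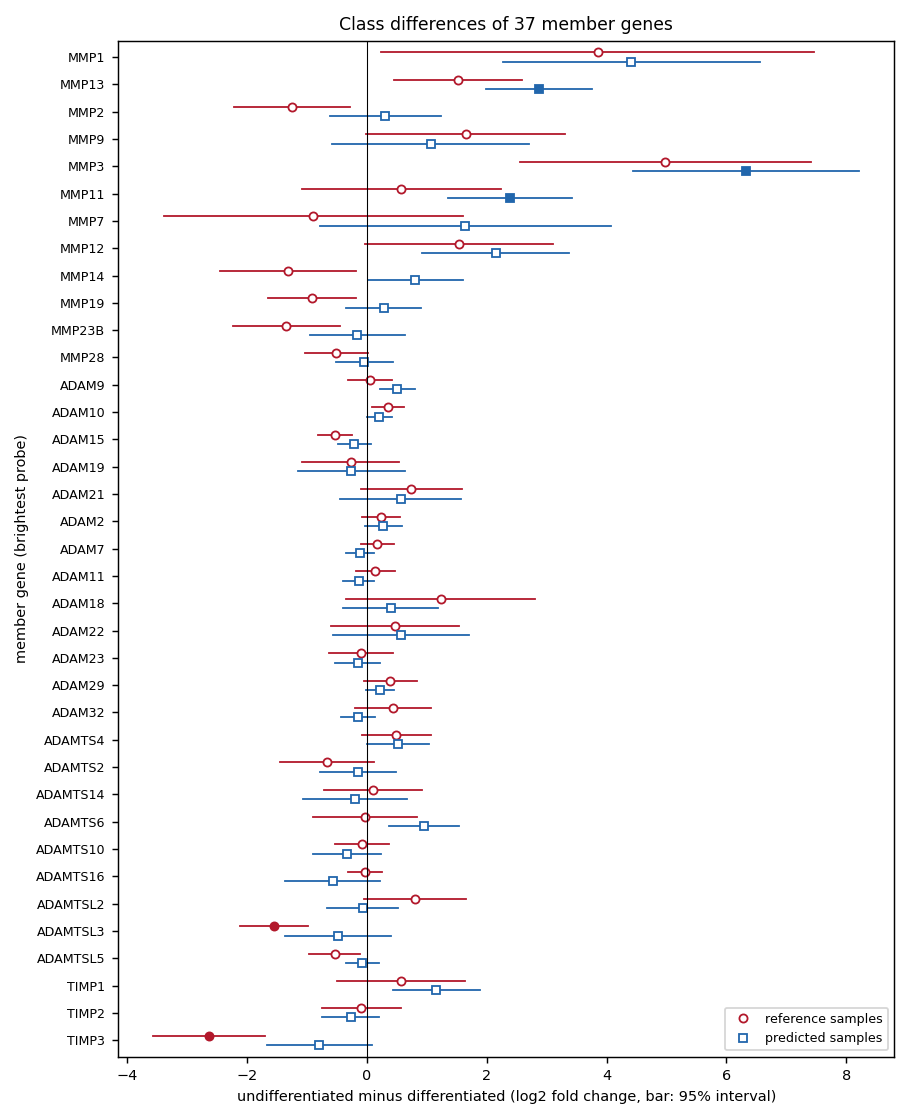
Class difference of each of the 37 member genes (brightest probe) as undifferentiated minus differentiated in log2 units, circles for the reference and squares for the predicted samples, with bars for the 95% interval before adjustment and filled symbols for called differences. TIMP3 and ADAMTSL3 are filled on the left for the reference samples, and MMP3, MMP13 and MMP11 on the right for the predicted samples; MMP1 was called there by its other probe, and the MMP13 reference point gives no size because 0 of the 13 differentiated arrays were well above background.

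MMP1, interstitial collagenase, cleaves fibrillar collagens such as type I collagen. In the reference undifferentiated MCTs its level was 6.41 in T9, 15.13 in T57, 14.33 in T73, 8.69 in T90 and 11.63 in LM0. The 13 reference differentiated MCTs ran from 2.08 to 14.76 with a median of 6.79. T57 alone exceeded the highest differentiated tumor, T130. The difference was 3.85 (SE 1.84) and did not pass the test (limma adjusted p = 0.22). In the predicted samples the level was 8.47 to 14.90 (median 11.79) in the undifferentiated group, T115 being the lowest and T114 the highest, and 2.54 to 11.80 (median 7.00) in the differentiated group. Of the 7 predicted undifferentiated tumors, 3 lay above all 26 differentiated ones. The difference was 4.41 (SE 1.10, limma adjusted p = 0.0132) by this probe and 4.32 (SE 1.01, adjusted p = 0.00866) by the other MMP1 probe, which was called. Over all tumors both probes were called, with differences of 4.16 (SE 0.97, adjusted p = 0.00182) and 3.98 (adjusted p = 0.00171). The probes correlated at r = 0.988 over the tumors. MMP1 was also the most variable detected member, with an SD of 3.45 over the 51 tumors. Among differentiated tumors T130, T100 and T101 reached 14.76, 12.84 and 11.90, while 7 of 39, T55 lowest at 2.08, were not well above background.

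MMP13, collagenase 3, cleaves type II collagen with preference and other fibrillar collagens. Its probe was dim. Among the reference undifferentiated tumors it read 6.70 in T57, 3.28 in T73, 2.55 in T90 and 2.25 in LM0, and the T9 spot was flagged as an outlier and left out. T57 was the only 1 of these well above background, and 0 of the 13 reference differentiated arrays were; 12 of them had a value, from 1.95 to 3.06. The reference classes did not pass the test (limma adjusted p = 0.102, and 0.158 without T57), and no size is given because the differentiated side is not well above background. The predicted undifferentiated tumors ran from 2.01 in T115 to 7.74 in T114 with a median of 5.72, and 6 of 7 were well above background. The predicted differentiated ones ran from 1.97 to 4.76 with a median of 2.28, and 2 of 26, T53 and T87, were well above background. T115 and T80 lay within the differentiated range and the other 5 above it, and the difference was 2.88 (SE 0.45, limma adjusted p = 0.000189). Over all tumors it was 2.37 (SE 0.38, adjusted p = 1.11e-05). With normexp background correction, which raises dim signals, the predicted difference shrank to 0.70 and the all-class difference to 0.55, both under a fold of 2.

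MMP3, stromelysin 1, degrades proteoglycans, fibronectin and several collagens and can activate other MMP precursors. Its level was 1.68 in T9, 14.06 in T57, 9.92 in T73, 4.82 in T90 and 5.53 in LM0, while the reference differentiated MCTs ran from 1.76 to 3.54 with a median of 1.84. The probe was well above background in 4 of 5 undifferentiated and 1 of 13 differentiated tumors, and T9, the exception, was as dim as the differentiated arrays. The difference of 4.98 (SE 1.24, limma adjusted p = 0.0205) missed the limit of 0.01. Its size and call depended on single tumors. Without T9 it was 6.36 and was called (adjusted p = 0.00267), while without T57 it was 3.27 (adjusted p = 0.0242) and without T73 4.30 (adjusted p = 0.0572). Predicted undifferentiated tumors ran from 1.81 in T77 to 15.31 in T114 with a median of 9.53 and 6 of 7 were well above background. The differentiated ones ran from 1.72 to 7.60 with a median of 1.80 and 3 of 26 were above background. T77 and T115, at 4.11, fell within the differentiated range, and the other 5 lay above its highest tumor, T53. The difference was 6.33 (SE 0.96, limma adjusted p = 0.000126), and 5.75 (SE 0.76, adjusted p = 1.69e-07) over all tumors. No linear fold is given, because most differentiated tumors were not well above background, and the size of the log2 difference depended on the correction: with normexp the differences were 2.30, 3.22 and 2.83 in the reference, predicted and all-class comparisons, and the last 2 were still called.

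**Figure D2:**
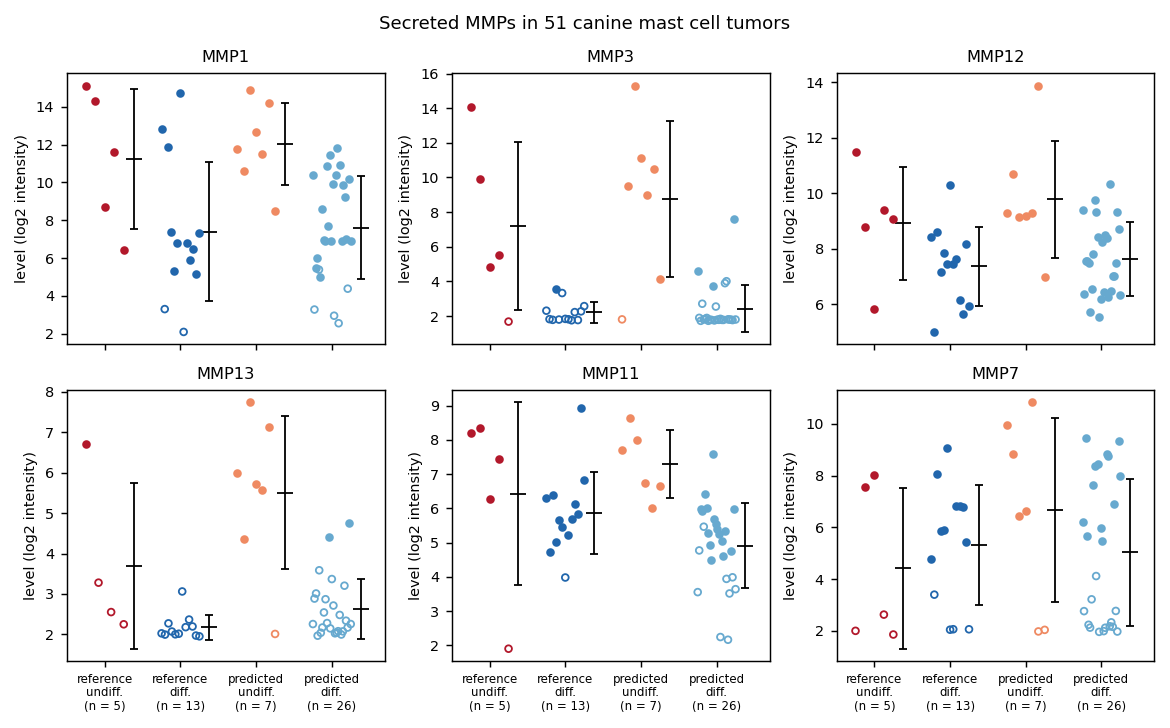
Levels of MMP1, MMP3, MMP12, MMP13, MMP11 and MMP7 (log2 intensity, brightest probe) in each tumor of the 4 groups, with the mean and SD beside the points; open circles are spots not well above background, and spots flagged as outliers are not drawn. The undifferentiated groups reach higher than the differentiated ones for MMP1, MMP3 and MMP13, and single undifferentiated tumors such as T9 (MMP3, 1.68) and T77 (MMP3, 1.81) lie at the level of the differentiated group.

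MMP11, stromelysin 3, is activated inside the cell by furin and is known from the stroma of carcinomas. Its level was 1.90 in T9, 8.21 in T57, 8.34 in T73, 6.27 in T90 and 7.45 in LM0, and 3.98 to 8.95 (median 5.68) in the reference differentiated MCTs. T9 lay below all differentiated tumors and the other 4 within their range. The difference was 0.58 (SE 0.85, limma adjusted p = 0.731), and 1.71 without T9 (adjusted p = 0.122). Predicted samples had 6.01 to 8.64 (median 7.23, 6 of 7 arrays, the T49 spot being flagged) against 2.16 to 7.59 (median 5.14). The undifferentiated tumors sat in the upper part of the differentiated range, 3 of them above it, and the difference of 2.39 (SE 0.53, adjusted p = 0.00575) was called. With normexp it was 0.92, under a fold of 2. Over all tumors it was 1.68 (adjusted p = 0.0121) and missed the limit.

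MMP12, macrophage elastase, degrades elastin and was well above background on all 51 arrays. Its level was 9.07 in T9, 11.50 in T57, 8.79 in T73, 5.82 in T90 and 9.39 in LM0, and 5.01 to 10.30 (median 7.47) in the reference differentiated tumors. T57 was above all of these and T90 below their median. Predicted samples had 6.97 to 13.88 (median 9.28) against 5.55 to 10.34 (median 7.52), with T49 highest and T115 lowest among the undifferentiated. Differences were 1.54 (SE 0.80, limma adjusted p = 0.261) and 2.15 (SE 0.63, adjusted p = 0.0368), neither called, and 1.87 (SE 0.50, adjusted p = 0.00637) over all tumors, which was called. Of the 6 macrophage markers on the array, CD14 rose in the predicted undifferentiated tumors (1.64, limma adjusted p = 0.00116) and CSF1R fell in the reference ones (-1.92, adjusted p = 0.00661). In each of these 2 comparisons 2 of the 6 markers had a positive and 4 a negative difference. The median was -0.23 in the reference and -0.06 in the predicted samples. The mean of all 6 was 9.06 to 11.40 in undifferentiated and 9.12 to 11.25 in differentiated tumors. Their part in the MMP12 difference was not tested.

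MMP7, matrilysin, is a small MMP made mostly by epithelia, and in these tumors it was either clearly present or at background. It was well above background on 2 of 5, 9 of 13, 5 of 7 and 13 of 26 arrays of the reference undifferentiated, reference differentiated, predicted undifferentiated and predicted differentiated groups. The level was 1.85 in T9, 1.995 in T57, 7.58 in T73, 8.04 in T90 and 2.62 in LM0, and the range over the 51 tumors was 1.85 to 10.83 with an SD of 2.83. High and low tumors were found in each group. The differences of -0.90, 1.64 and 0.61 in the reference, predicted and all-class comparisons did not pass the test (limma adjusted p = 0.721, 0.539 and 0.767). T57 and T49, both high for MMP1, MMP3 and MMP13, had MMP7 at background, while T104, at 9.00 for MMP3, had the highest MMP7 level of all tumors.

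The gelatinases MMP2 and MMP9 cleave denatured collagen and type IV collagen of basement membranes. Neither was called in any comparison. MMP2 was 10.76 in T9, 13.34 in T57, 11.96 in T73, 11.79 in T90 and 12.48 in LM0, and 10.50 to 14.46 (median 13.59) in the reference differentiated tumors. All 5 undifferentiated values lay below that median and within the range, with a difference of -1.25 (SE 0.50, limma adjusted p = 0.136). Predicted samples had 11.11 to 13.77 (median 12.63) against 10.63 to 14.79 (median 11.99), a difference of 0.31 (adjusted p = 0.791).

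MMP9 was 11.71 in T9, 14.56 in T57, 13.81 in T73, 9.24 in T90 and 11.60 in LM0, and 7.72 to 12.52 (median 11.00) in the reference differentiated tumors. T57 and T73 were above all of these, and the difference was 1.65 (SE 0.85, limma adjusted p = 0.254). Predicted samples had 10.44 to 14.70 (median 11.57) against 8.48 to 16.87 (median 10.21), and the highest level of all belonged to a differentiated tumor, T117. The difference was 1.07 (SE 0.84, adjusted p = 0.56). Of the 5 MMP9 probes, 3 were detected on 26 arrays or more. The brightest pair overlap by 49 bases at an offset of 11 bases on chromosome 24 and are shown because they differ by a single base of the overlap, which is in capitals.
MMP9 brightest probe: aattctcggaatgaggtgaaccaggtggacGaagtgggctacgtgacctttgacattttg
MMP9 other probe: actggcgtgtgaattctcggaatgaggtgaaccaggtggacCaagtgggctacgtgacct
The difference is G31C, counted from 1 at the 5′ end of the brightest probe, with that probe's base first. The levels of these MMP9 probes correlated at r = 0.999 over the 51 tumors, and both were well above background on all 51 arrays.

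MMP14, the membrane-type MMP that activates the MMP2 precursor at the cell surface, read 1.83 in T9, 7.52 in T57, 5.25 in T73, 4.44 in T90 and 5.70 in LM0. The reference differentiated tumors ran from 4.70 to 7.07 with a median of 6.39. T9 and T90, where the probe was not well above background, lay below them and T57 above. The difference was -1.32 (SE 0.58, limma adjusted p = 0.182), and it was -0.54 without T9 and -1.96 (adjusted p = 0.0215) without T57. Levels in the predicted samples were 5.00 to 7.29 (median 6.46) against 3.51 to 8.07 (median 5.64), and the difference was 0.81 (SE 0.40, adjusted p = 0.271). The remaining MMPs were MMP19, MMP23B, which is anchored in the membrane, and MMP28 (epilysin). Their differences were -0.92, -1.35 and -0.51 in the reference samples and 0.28, -0.16 and -0.04 in the predicted ones, none called.

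Whether a class difference itself differed between reference and predicted samples was tested as an interaction over the 51 arrays, in which 0.00459% of all probes and 0 of 59 members were called. The share of all probes at an unadjusted p under 0.05 was not computed, so a count of members at that limit has no comparison. There were 8 such member probes. By unadjusted p the first of these was MMP14, at -2.12 (SE 0.69, limma p = 0.00337, adjusted p = 0.179). The others were the dimmer ADAMTS6 probe at -1.86 (adjusted p = 0.232), 3 TIMP3 probes between -1.58 and -1.89 (adjusted p = 0.234 for the brightest), MMP2 at -1.56 (adjusted p = 0.335), MMP19 at -1.20 (adjusted p = 0.287) and a dimmer ADAM15 probe at -0.56 (adjusted p = 0.349). For MMP11 it was -1.81 (adjusted p = 0.396), and for MMP3 -1.35 (SE 1.58, adjusted p = 0.716). A call in one set of samples and not in the other is therefore not shown to differ between them.

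TIMP3 is the TIMP that binds to the extracellular matrix, and it inhibits MMPs as well as some ADAM and ADAMTS enzymes. By its brightest probe the level was 6.80 in T9, 9.25 in T57, 7.61 in T73, 8.66 in T90 and 9.84 in LM0. The reference differentiated MCTs ran from 9.12 to 12.01 with a median of 11.28. All 5 undifferentiated tumors lay below that median and 3 of them below the whole range, with T112 the lowest differentiated tumor. The difference was -2.64 (SE 0.48, limma adjusted p = 0.0026), and the other probes gave -2.97 (adjusted p = 0.00417) and -2.25 (adjusted p = 0.00922), so all 3 were called. The brightest probe was well above background on all 51 arrays. The probe with -2.97 was so on 2 of 5 reference undifferentiated arrays and that with -2.25 on 4 of 5. The sizes from these dimmer probes therefore rest in part on levels near background. The probes correlated with each other at r = 0.918 or more over the tumors. Without LM0 the differences were -2.99, -3.42 and -2.70, all called. Without T9 they were -2.23, -2.46 and -1.89, and only the brightest probe was called (adjusted p = 0.00942), and likewise without T73 (-2.43, adjusted p = 0.00984). Without T90 the probe with -2.25 in the full comparison was at -2.26 and lost its call (adjusted p = 0.021), and the other probes were called.

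Among predicted samples TIMP3 was 7.77 to 12.05 (median 10.29) in undifferentiated and 8.56 to 12.58 (median 10.56) in differentiated MCTs. T49 and T132 were below all differentiated tumors, and T77 was above most of them. The difference was -0.80 (SE 0.45, limma adjusted p = 0.348), with a 95% interval from -1.67 to 0.08 before adjustment. Over all tumors the 3 probes were called with -1.52 (SE 0.35, adjusted p = 0.00168), -1.81 (adjusted p = 0.00265) and -1.30 (adjusted p = 0.00455). With the age of the dog in the model the all-class differences were -1.36, -1.60 and -1.17, and none was called (adjusted p = 0.0115 to 0.0243).

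ADAMTSL3 is a secreted glycoprotein of the matrix without protease activity. Its level was 5.84 in T9, 6.71 in T57, 6.49 in T73, 6.06 in T90 and 7.26 in LM0, and 6.52 to 8.94 (median 8.13) in the reference differentiated tumors. T9, T73 and T90 were below the differentiated range and the other undifferentiated tumors at its lower end. The difference was -1.56 (SE 0.29, limma adjusted p = 0.0034). It was -1.75 and called without LM0, but -1.40 (adjusted p = 0.013) without T9 and -1.45 (adjusted p = 0.012) without T90. With normexp it was -0.87, under a fold of 2, and with age as a covariate -1.40 (adjusted p = 0.0122), not called. The other ADAMTSL3 probe was well above background on 0 of 5 undifferentiated and 1 of 13 differentiated reference arrays. It was not called (adjusted p = 0.0689). Predicted samples had a level of 5.85 to 8.97 (median 7.80) against 6.40 to 10.14 (median 8.24), with only T115 below the differentiated range. By the brightest probe the predicted difference was -0.49 (SE 0.45, adjusted p = 0.636), and over all tumors -0.93 (SE 0.31, adjusted p = 0.0352), not called.

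TIMP1 inhibits most secreted MMPs, and TIMP2 both inhibits MMP2 and takes part in its activation by MMP14. Neither was called in any comparison. Of the 51 spots of the brightest TIMP1 probe 15 were flagged as outliers and left out. It was 15.11 in T9, 17.43 in T57, 16.26 in T73 and 16.85 in T90, and 14.36 to 17.13 (median 16.06) in 8 reference differentiated tumors. Predicted samples had 16.01 to 17.56 (median 17.31, 4 tumors) against 14.51 to 17.02 (median 15.87, 20 tumors). The differences were 0.56 (limma adjusted p = 0.583), 1.16 (adjusted p = 0.0681) and, over all tumors, 0.85 (SE 0.31, adjusted p = 0.0557). The other TIMP1 probe had values for all 7 predicted undifferentiated tumors, from 13.70 in T77 to 18.08 in T114. The 24 differentiated tumors with a value ran from 13.73 to 16.44, with 4 undifferentiated tumors above them and T77 below. By that probe the predicted difference was 0.95 (adjusted p = 0.166).

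TIMP2 varied little, between 12.33 and 15.15 over the tumors. It was 13.87 in T9, 13.13 in T57, 14.91 in T73 and 13.66 in T90, and 13.24 to 15.15 (median 13.89) in the reference differentiated tumors, which cover all but T57. The differences were -0.09, -0.27 and -0.17 in the reference, predicted and all-class comparisons (limma adjusted p = 0.899, 0.628 and 0.692). The direction of these values was not stable, since it turned in each comparison when flagged spots were kept or the authors' normalized table was used. The other, dimmer TIMP2 probe was well above background on all 51 arrays. It gave differences of -0.01, 0.09 and 0.07 in the same comparisons, none called.

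**Figure D3:**
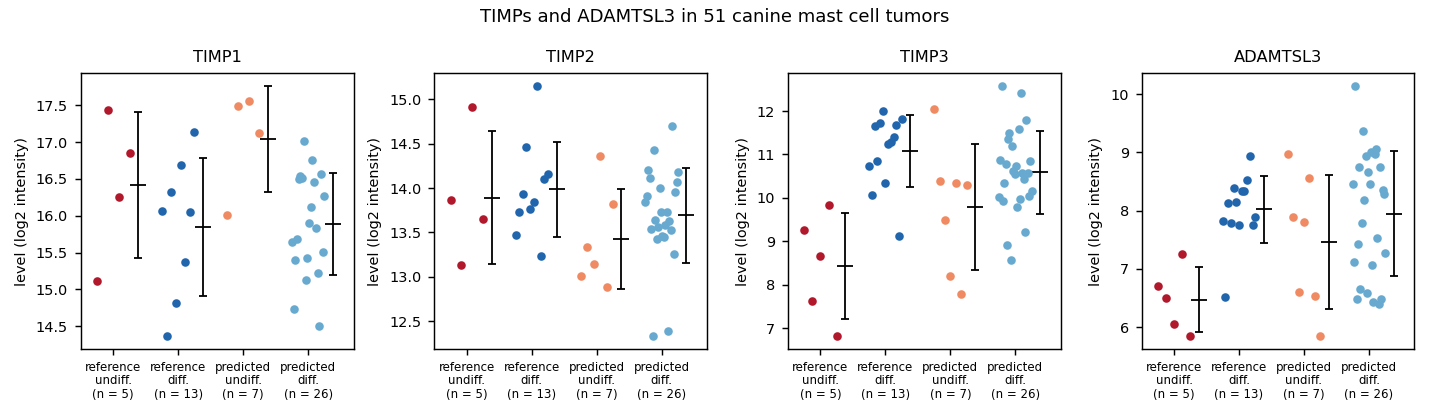
Levels of TIMP1, TIMP2, TIMP3 and ADAMTSL3 (log2 intensity, brightest probe) in each tumor of the 4 groups, with the mean and SD beside the points; spots flagged as outliers are not drawn, so TIMP1 and TIMP2 have fewer points than tumors. For TIMP3 and ADAMTSL3 the 5 reference undifferentiated tumors lie at or below the lower end of the reference differentiated ones, while the predicted groups cover much the same range.

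ADAM10, the sheddase of Notch and many other surface proteins, was 11.11 in T9, 11.80 in T57, 11.67 in T73, 11.81 in T90 and 12.21 in LM0, against 10.99 to 11.60 (median 11.34) in the reference differentiated tumors. Of the undifferentiated tumors 4 were above that range and T9 was within it. Its SD over the 51 tumors was 0.26. The all-class difference was 0.26 (SE 0.08, limma adjusted p = 0.02) and met neither limit of a call. ADAM15 differed by -0.53 (adjusted p = 0.034) in the reference samples and ADAM9, another sheddase, by 0.51 (adjusted p = 0.0404) in the predicted ones, both under a fold of 2. In all, 0 of 22 ADAM probes were called in the reference, predicted or all-class comparison. The median difference of the 13 ADAM genes was 0.23, 0.21 and 0.25, beside 0.04, -0.04 and -0.01 over all genes. These 13 include ADAM2, ADAM7, ADAM29 and ADAM32, which were never detected. The reference and all-class medians are the values of ADAM2, so they are not a measured shift of the family.

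Of the 6 ADAMTS genes none was called either. ADAMTS2, which removes the amino-terminal propeptide of fibrillar procollagens, was 6.77 in T9, 9.41 in T57, 8.17 in T73, 7.60 in T90 and 8.29 in LM0, and 7.15 to 9.85 (median 8.91) in the reference differentiated tumors. T9 was below that range and T57 well inside it. The differences were -0.67 and -0.15 in the reference and predicted samples (limma adjusted p = 0.331 and 0.855). ADAMTS6 was closest to a call, with 1.40 (SE 0.37, adjusted p = 0.019) in the predicted samples by its dimmer probe and 0.95 (adjusted p = 0.0537) by the brighter. In the reference samples the same probes gave -0.46 (adjusted p = 0.714) and -0.04 (adjusted p = 0.971). ADAMTS4, an aggrecanase, differed by 0.50 over all tumors (adjusted p = 0.0786).

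**Figure D4:**
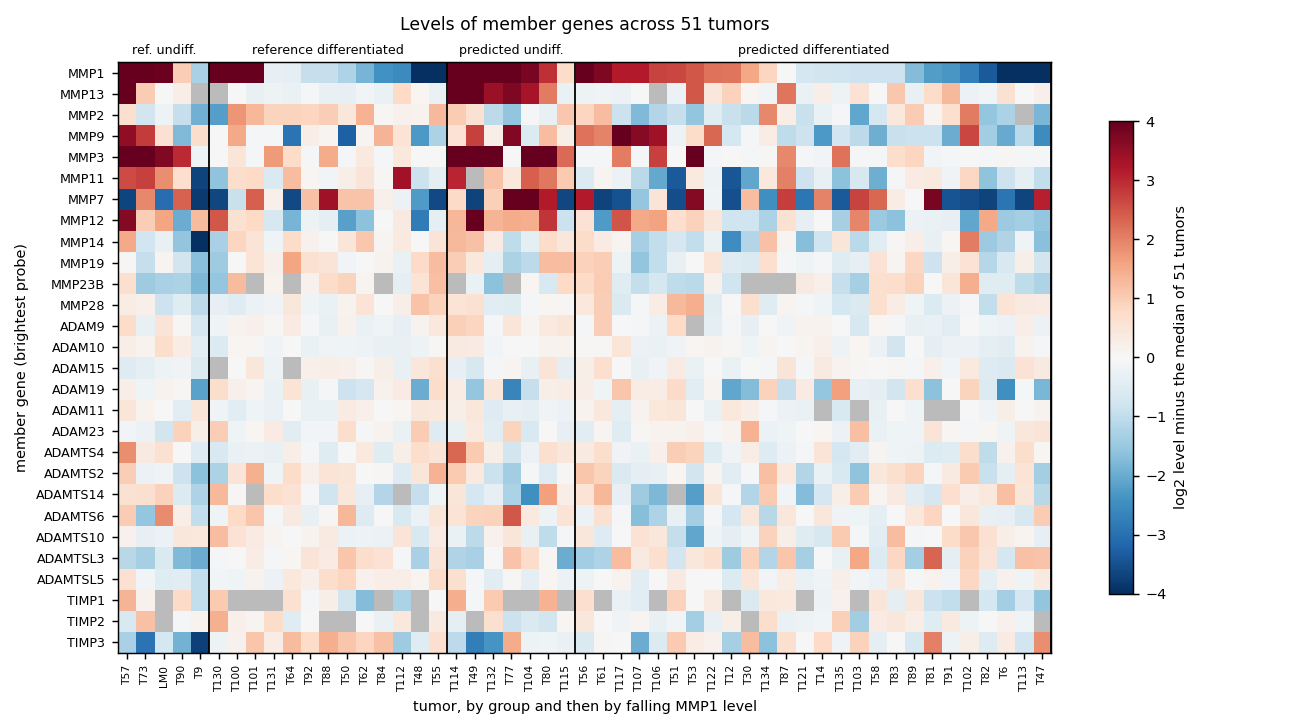
Level of the detected member genes (brightest probe, rows) in each of the 51 tumors (columns, by group and then by falling MMP1 level) as the log2 difference from the median of the gene over all tumors; colors end at 4 and -4, and grey cells are spots flagged as outliers. The rows of MMP1, MMP3 and MMP7 vary most (SD 3.45, 3.40 and 2.83), that of ADAM10 varies little (SD 0.26), and T9 is low for MMP11, MMP14 and TIMP3.

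Among activators and other inhibitors of these enzymes, 18 of 20 listed genes were on the array, and 0, 1 and 2 were called in the reference, predicted and all-class comparisons. PLAUR, the receptor for urokinase, which starts the plasmin cascade that activates MMP precursors, rose in the predicted samples (2.42, limma adjusted p = 0.00699). Over all tumors it rose by 2.44, and SERPINE2, an inhibitor of urokinase and other serine proteases, rose by 2.03 (adjusted p = 0.00313). The median of the 18 genes was -0.25, 0.59 and 0.01. Of 14 matrix substrates on the array, DCN (decorin, a proteoglycan that binds collagen) was called at -1.45 in the reference samples (limma adjusted p = 0.000388). Of 12 substrates of ADAM sheddases, AREG, a ligand of the EGF receptor released by shedding, was called in the predicted samples (4.59, limma adjusted p = 0.00363) and over all tumors (adjusted p = 0.00157).

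Markers of mast cells and of other cells were set beside these differences. In the predicted samples, where the MMPs rose, all 4 mast cell markers had a negative difference (median -0.51, none called), and their mean was 14.96 ± 1.10 (SD, n = 7) in undifferentiated and 15.68 ± 0.54 (n = 26) in differentiated tumors. T114, the highest tumor of its group for MMP1, MMP3 and MMP13, had the lowest mast cell mean of the 51 tumors, 13.60. Other tumors of that group went the other way. T77, at 13.70, had MMP3 at 1.81, while T49 and T132, with the group's highest means (16.19 and 16.32), had MMP3 at 10.48 and 11.10. In the reference samples the median was 0.04. In the reference samples 8 of 9 fibroblast markers had a negative difference, with a median of -0.85 and DCN called, and the mean level of the 9 was 11.77 to 13.89 in undifferentiated and 11.53 to 14.14 in differentiated tumors. In the predicted samples the median was 0.23, with ranges of 12.15 to 13.78 and 12.01 to 13.87. In the reference samples MMP2 (-1.25), MMP14 (-1.32, or -0.54 without T9) and TIMP3 (-2.64) also had negative differences. Within a class, TIMP3 and the fibroblast mean had r = 0.181 in differentiated and 0.272 in undifferentiated tumors. Neither passed (permutation adjusted p = 0.458 and 0.502). Of 7 neutrophil markers listed 4 were on the array, all detected on 47 arrays or more. Their median difference was 3.10 in the reference and 3.04 in the predicted samples, and S100A9 was called over all tumors (3.96, limma adjusted p = 0.00139). Their mean level differed less than that median, at 9.64 ± 2.76 (SD, n = 5) against 8.34 ± 1.27 (n = 13) in the reference and 10.66 ± 1.66 (n = 7) against 8.51 ± 1.41 (n = 26) in the predicted samples. Over all tumors it ran from 6.41 to 13.26. LCN2 stood at -0.54 over all tumors, and most CSF3R spots were flagged as outliers and left out. The 5 keratinocyte markers had medians of -2.28 and 2.39, none called, and their mean ran from 2.91 to 15.20 over single tumors. The part of these cells in the member differences was not tested.

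Pairs of genes with a known link, and genes with cell markers, were compared across tumors within each class. Of 18 such relations, adjusted together with permutation tests, 6 passed an adjusted p of 0.05. MMP2 and MMP14 rose and fell together. Pearson's r was 0.865 and Spearman's rho 0.868 in 38 differentiated tumors (permutation adjusted p = 4.5e-05 for both, from 1e-05, the smallest p the permutations could give). In the 12 undifferentiated tumors r was 0.807 (adjusted p = 0.00141) and rho 0.783 (adjusted p = 0.0118). Without the 2 tumors farthest from the median of MMP2, r was 0.866 and 0.798, still past the limit. MMP2 also followed the mean of the 9 fibroblast markers, with r = 0.864 and rho = 0.870 in differentiated and r = 0.968 and rho = 0.930 in undifferentiated tumors (permutation adjusted p = 4.5e-05 for each). Without the 2 farthest tumors r was 0.840 and 0.948. The points of a class share the normalization over the 51 arrays, and a marker mean was taken after centering each gene on its own mean, so that a spot left out did not shift a tumor.

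ADAMTS2 and the fibroblast mean gave r = 0.830 and rho = 0.867 in differentiated (permutation adjusted p = 4.5e-05 for both) and r = 0.892 and rho = 0.881 in undifferentiated tumors (adjusted p = 0.000504 and 0.00126). Without the 2 farthest tumors r was 0.818 and 0.833. For TIMP3 and the fibroblast mean no relation passed: r was 0.181 and rho 0.166 in differentiated, and r 0.272 and rho 0.266 in undifferentiated tumors (permutation adjusted p between 0.458 and 0.515). MMP2 with TIMP2, MMP14 with TIMP2, MMP9 with TIMP1, MMP9 with the neutrophil mean and MMP12 with the macrophage mean did not pass in either class, with r between -0.244 and 0.358.

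**Figure D5:**
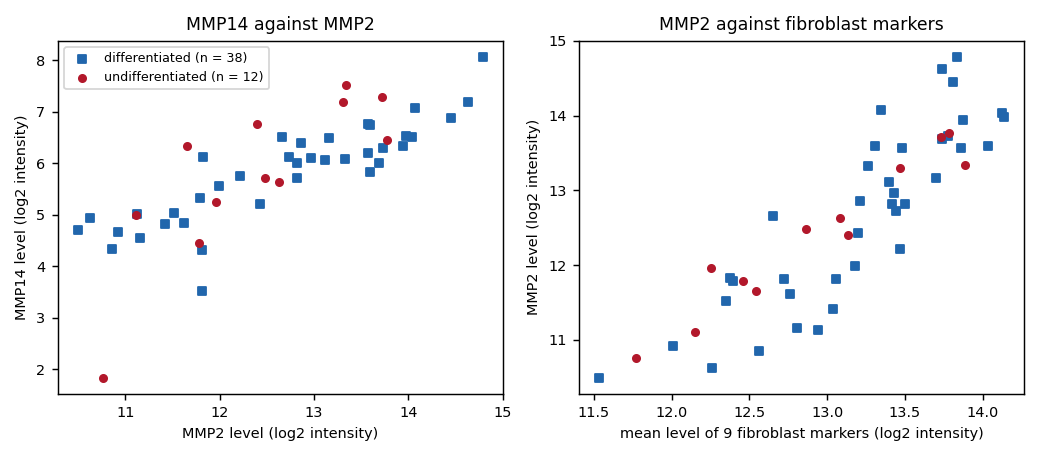
MMP14 against MMP2 (left) and MMP2 against the mean of 9 fibroblast markers (right), log2 intensity, 1 point per tumor, squares for differentiated and circles for undifferentiated. MMP14 rises with MMP2 in both classes (r = 0.865 and 0.807), and T9 is the lowest point on the left with MMP14 at 1.83; MMP2 also rises with the fibroblast mean (r = 0.864 and 0.968), with T9 at the lower left.

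The arrays came from 15 slides scanned in 9 sessions, of which 10 slides and 7 sessions held both classes. Within each of the 4 sessions with both reference classes TIMP3 was lower in the undifferentiated tumors, by -3.99 to -2.20, and ADAMTSL3 by -2.12 to -0.68. With session as a block all 4 reference calls were kept (TIMP3 -3.03, limma adjusted p = 0.00528; ADAMTSL3 -1.69, adjusted p = 0.00304). With slide as a block TIMP3 was -3.05 to -3.50 (adjusted p = 0.0206 to 0.0416) and ADAMTSL3 -1.87 (adjusted p = 0.0286), and none was called, in a fit where 2 slides held both reference classes. Within each of the 4 sessions with both predicted classes MMP3 was higher by 3.66 to 8.71, MMP1 by 3.56 to 7.04 and MMP13 by 2.33 to 4.48 in undifferentiated tumors, and MMP11 was higher by 1.69 to 3.06 in the 3 sessions where it was measured. With session as a block MMP3 (6.68, adjusted p = 0.00428) and MMP13 (3.08, adjusted p = 0.00527) were called. MMP1 (5.00 by its other probe, adjusted p = 0.0121) and MMP11 (2.26, adjusted p = 0.0623) were not called there, with differences close to or above those without the block. With slide as a block MMP3 was called (8.05, adjusted p = 0.00504), and MMP13 (3.01, adjusted p = 0.0388), MMP1 (5.35 by its other probe, adjusted p = 0.0388) and MMP11 (2.34, adjusted p = 0.129) were not.

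Sex and age were compared with the class in the model, and breed among differentiated tumors only. Males and females numbered 4 and 2 in the predicted undifferentiated and 7 and 18 in the predicted differentiated group. With sex as a covariate MMP3 and MMP13 kept their predicted calls. MMP1 (4.81 by its other probe, limma adjusted p = 0.0132) and MMP11 (2.49, adjusted p = 0.017) lost theirs. With age as a covariate MMP3 and MMP13 again kept their predicted calls. MMP1 (3.93 by its other probe, adjusted p = 0.0435) and MMP11 (2.51, adjusted p = 0.0163) again lost theirs. In the reference samples with age, only the brightest TIMP3 probe was called (-2.56, adjusted p = 0.00803). The other TIMP3 probes were not (adjusted p = 0.013 and 0.0252). Between 19 males and 30 females 0.0275% of all probes and 0 of 59 members were called. No share of all probes was computed at an unadjusted p under 0.05, here or for age and breed. The members with an unadjusted limma p under 0.05 numbered 4. The largest of these was MMP7, with means of 4.09 in males and 5.84 in females and an adjusted difference of -2.06 (SE 0.80, p = 0.0137, adjusted p = 0.886). Per year of age 0 probes, or 0% of all, were called, with 1 member at an unadjusted limma p under 0.05. Between 7 Boxers and 7 Labrador Retrievers with differentiated MCTs 0.0367% of all probes and 0 members were called. The member with an unadjusted p under 0.05 was ADAMTS2, with means of 8.05 and 8.89 and a difference of -0.84 (SE 0.36, limma p = 0.0353, adjusted p = 0.701).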

How the data were processed

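The authors extracted each one-color scan with Agilent Feature Extraction 9.5.1.1, and the processed signal they deposited is a linear intensity per spot, with background subtracted within the array and no normalization between arrays. Their deposited table of intensities, normalized over the 51 arrays together, was used as an alternative. Here log2 values of that signal were quantile-normalized over the 51 arrays without control spots. Spots flagged as outliers, 718 to 3291 on each array, were treated as missing, and replicate spots were averaged by probe. Classes were compared with limma 3.58.1 in R 4.3.3, with Benjamini-Hochberg adjustment over all probes. The study's own program, SAM, was not run. Relations used 100000 permutations in numpy 2.4.6, and figures used matplotlib 3.10.9. The steps were tested on simulated data.

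A gene is represented by the probe with the highest mean level unless stated. Genes were described by name under a rule: all TIMPs; MMP2, MMP9, MMP14, ADAM8, ADAM10, ADAM17, ADAMTS1 and ADAMTS2; members called in a class comparison; the 5 largest differences in the reference and in the predicted samples among those above background on at least 5 arrays; the 5 largest SDs among those above background on at least 26; and called genes of the other lists. Other members were named after their values were seen. Members and lists were chosen with earlier results of these data known. The precision is limited by the number of tumors, since nothing tells separate extractions of a tumor apart.

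Alternatives were scaling to the 75th percentile, normexp (offset 50), flagged spots kept, the authors' table, removal of dim probes, slide or scan session as a block, sex or age as covariates, an adjusted p under 0.05, the methods' t-test, gene means and leaving out each reference undifferentiated tumor. Differences within scan sessions, the all-class fits without T9, T57, T73 or T90, 15 relations and the centering of marker genes before their mean were added after seeing the data.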

Additional observations from a re-analysis of the deposited data

How the results depend on the processing

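TIMP3, MMP3 and MMP13 kept their direction in the class fits and their alternatives, but not within every scan session. By its brightest probe TIMP3 was lower in 2 of 4 predicted sessions (highest difference 0.23) and 6 of 7 all-class sessions. MMP3 was higher in 3 of 4 reference sessions (lowest difference -0.14), and MMP13 in 6 of 7 all-class sessions (lowest -0.09). The number of member probes called was less stable. For the reference samples it was 4, and became 1 with normexp, 0 with slide as a fixed block, 1 with age as a covariate and 2 to 4 when a reference undifferentiated tumor was left out (2 without T9, 1 of them higher, and 2 without T73 or T90, both lower). For the predicted samples it was 4, and became 1 with slide as a fixed block, 2 with session as a block, 2 with sex and 2 with age as a covariate, 8 by the methods' t-test without adjustment and 8 at an adjusted p under 0.05 with no fold limit. For all classes it was 8, and became 5 with normexp, 5 with slide as a fixed block, 4 with age as a covariate and 14 at an adjusted p under 0.05 with no fold limit; leaving out a reference undifferentiated tumor gave 7 to 8, of which the fits without T9, T57, T73 and T90 were added after seeing the data. Of the relations 3 passed in each class, and 3 did under each alternative run. The cause was not tested.

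Values that turned were all small or uncertain. In the reference samples MMP7 became 2.69 (slide block) and 0.31 (session block), and TIMP2 became 0.12 (75th percentile), 0.02 (flagged spots kept), 0.03 (authors' table), 0.01 (slide as random block), 0.62 (slide block), 0.22 (session block) and -0.43 to 0.16 when a reference undifferentiated tumor was left out (0.16 without T57). In the predicted samples ADAMTS2 became 0.38 (slide block) and 0.13 (session block), and TIMP2 0.02 (flagged spots kept), 0.04 (authors' table) and 0.03 (slide block). Over all classes MMP14 became 0.07 (normexp), 0.02 (slide block) and 0.11 (session block), and TIMP2 0.04 (flagged spots kept) and 0.05 (authors' table). Among correlations r became 0.05 (authors' table) and 0.04 (flagged spots kept) for MMP2 and TIMP2 in undifferentiated tumors, -0.01 for MMP14 and TIMP2 in differentiated and 0.06 for MMP9 and TIMP1 in undifferentiated tumors (75th percentile). For MMP9 and the neutrophil mean in differentiated tumors r was 0.003 and became -0.01 (75th percentile), -0.02 (authors' table), -0.02 (flagged spots kept) and -0.03 (marker means not centered by gene), and for MMP12 and the macrophage mean in undifferentiated tumors it became -0.07 without the 2 farthest tumors. Without centering, spots left out shift the marker means, and r for MMP2 and the fibroblast mean was then 0.606 in differentiated and 0.792 in undifferentiated tumors; centering, and keeping flagged spots for the relations, were added after seeing the data. The relation of ADAM17 and ADAM10 could not be computed, since no probe carries the name ADAM17. Levels near background, such as those of MMP3 and MMP13 in differentiated tumors, give fold changes that depend on the background correction.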

Other observations

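The MMP genes that neighbor each other on chromosome 5 were set against each other after seeing the data, in 15 added relations adjusted together. In the 12 undifferentiated tumors MMP1 and MMP3 gave r = 0.814 and rho = 0.832 (permutation adjusted p = 0.0109 and 0.0131), and r = 0.710 without the 2 tumors farthest from the median of MMP1 (adjusted p = 0.111), so the relation rests in part on those. MMP1 and MMP13 gave r = 0.725 and rho = 0.745 (11 tumors, permutation adjusted p = 0.0525 and 0.0394) and MMP3 and MMP13 r = 0.638 (adjusted p = 0.097). In the 39 differentiated tumors MMP1 and MMP12 gave r = 0.515 and rho = 0.489 (permutation adjusted p = 0.0109 and 0.0131), and r = 0.429 without the 2 farthest (adjusted p = 0.0621). MMP1 against the mean of 4 neutrophil markers gave r = 0.707 and rho = 0.755 (permutation adjusted p = 0.0525 and 0.0326) in undifferentiated tumors, with r = 0.526 without the 2 farthest (adjusted p = 0.249), and r = 0.031 (adjusted p = 0.853) in differentiated tumors, a difference that was not tested.

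T53 was classed as differentiated by the study, and among the differentiated tumors it had the highest levels of MMP3 (7.60) and MMP13 (4.76) and an MMP7 level of 9.33, while its MMP1 level was not among the 5 highest. T115, classed as undifferentiated, was the lowest of its predicted group for MMP1 (8.47), MMP12 (6.97), MMP13 (2.01) and ADAMTSL3 (5.85). T77, in the same group, was at background for MMP3 (1.81) but had MMP13 at 6.00, MMP7 at 9.97 and the highest TIMP3 level of the undifferentiated tumors (12.05).

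The array also holds probes of these genes under other names, which the naming rule leaves out. The probe named by the transcript ENSCAFT00000039710, listed as MMP14, differed by -1.22 in the reference samples (limma adjusted p = 0.112), 1.13 in the predicted samples (adjusted p = 0.0773) and 0.12 over all tumors. The probe named AF111100, listed as MMP2, gave -1.12, 0.32 and -0.21. The 2 MMP28 probes correlated at r = 0.036 over the tumors and differed by -0.23 and 0.73 over all classes, so MMP28 has no agreed direction here.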
